A study of Homo sapiens with 4 samples.

Results

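The glycolytic enzyme genes GAPDH, PGK1, ENO1, LDHA, LDHB, PKM, ALDOA, TPI1, PGAM1 and HK2 were followed in a list of PRMT5-bound RNA regions from Jurkat cells. A peak belonged to a gene when its first-listed Ensembl identifier was named as that gene in the supplement of the study, as for PKM and ENO1, or, for the other 8 genes, when it lay on the same strand as the RefSeq gene of GRCh38.p14. All 10 genes had a peak, and together they held 35 of the 18993 peaks and 10 of the 8478 genes of the list. GAPDH served as the negative control gene in the RIP-qPCR assays of the study, and the question was how its signal in PRMT5 RIP compared with that of the other glycolysis genes and of the whole list. The RIP methods of the study name control IgG beside the PRMT5 and WDR77 antibodies, whereas RIP is set against input here. The values here are therefore not a repeat of those assays.

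Jurkat is an established human leukemic T cell line. The 2 PRMT5 RIP libraries and the 2 input libraries came from Jurkat cells stimulated with PHA, a lectin that activates T cells, for 48 hours and fixed with UV light, which the labels give as 264 nm. The RIP libraries held RNA recovered by immunoprecipitation through FLAG, and the input libraries are the background against which they were set. The construct that carried FLAG is not given in the sources used here, and no control immunoprecipitation was among the 4 libraries.

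For each peak the list gives 1 value for PRMT5 RIP and 1 for input in RPM, reads scaled to the size of a library. The 2 libraries of a kind were pooled in these values, so no spread between replicates and no interval is given here, the p-values of the list were not used, and every comparison is a description of pooled values. The only error that could be bounded was the rounding of RPM to 0.01. Depth per library is unknown. The RPM summed over all peaks to 755969 in RIP and 489424 in input, a log2 ratio of 0.63, and the median gene had a log2 ratio of 1.20. Dividing each column by its own sum moved every log2 ratio down by 0.63, so whether a gene lay above or below input depended on the scaling, whereas differences between genes did not. The list holds only regions that were called as peaks, and 96.0% of them were higher in RIP than in input as deposited. Of 10 marker genes of T cells 7 had a peak, among them CD3D with 452.76 RPM in RIP and 417.11 RPM in input, whereas of 10 marker genes of other cells 1, the B cell gene CD79A, had a peak.

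Glycolysis is the chain of reactions in the cytosol that splits glucose into pyruvate, with a net gain of ATP and NADH. Activated T cells and many leukemic lines rely on it heavily and turn much of the pyruvate into lactate, which regenerates NAD+. Several of its enzymes, GAPDH foremost, are also known to bind RNA as proteins. Many of their mRNAs are abundant in a cell, and GAPDH mRNA is a common reference in qPCR.

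As deposited, the summed RPM of 9 of the 10 genes was higher in PRMT5 RIP than in input, but after division by the column sums only 1 of the 10, HK2, remained above input. Over all genes of the list 97.7% were higher as deposited. After the division the median gene of the list stood at 0.57, so most genes stayed above input, though their exact share was not counted. PGK1, next below HK2 among the 10, then stood at -0.05 and had a higher ratio than 15.9% of all genes. As deposited, GAPDH was the only one of the 10 below input, with 2601.57 RPM in RIP and 2835.52 RPM in input. This is 0.918 of input and a log2 ratio of -0.12. The other 9 genes had a median log2 ratio of 0.38, or 1.30-fold, and ranged from 0.06 for PKM to 1.59 for HK2. GAPDH thus lay 0.50 below the median of the others on the log2 scale and 0.18 below PKM, its nearest neighbour. These differences are the same on both scalings.

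At least 2-fold more RPM in RIP than in input was found for 1 of the 10 genes, HK2, against 62.7% of all genes in the list. The other 9 lay below the median of all genes. GAPDH had a lower ratio than all but 1.10% of the genes, PKM than all but 2.93%, LDHA than all but 4.90% and TPI1 than all but 4.99%. ALDOA exceeded 7.77% of the genes, PGAM1 9.44%, LDHB 10.5%, ENO1 11.4% and PGK1 15.9%, whereas HK2 exceeded 70.4%. The order of the 10 genes is therefore an order within the low part of the list, apart from HK2. Whether neighbours in this order differ beyond replicate spread cannot be said from pooled values.

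Across the list the ratio was lower where input was higher, with a Spearman correlation of -0.55 across 8478 genes. This correlation is across genes that share the same pooled libraries, and input enters both of its measures. The glycolysis genes had a median of 248.9 RPM in input, against 2.28 RPM for all genes, so they were also read against the 434 genes with at least 100 RPM in input. In that class the correlation was -0.10, the median log2 ratio was 0.59, and the central 90% of genes ran from -0.21 to 1.96. Of the 7 glycolysis genes in it, 6 were higher in RIP as deposited, against 88.9% of the class, and none was at least 2-fold higher, against 29.7%. All 7 had a ratio below the median of the class, and their own median was 0.31. GAPDH had a lower ratio than all but 5.76% of these genes, PKM than all but 13.6%, and ENO1, the highest of the 7, exceeded 41.5%.

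**Figure D1:**
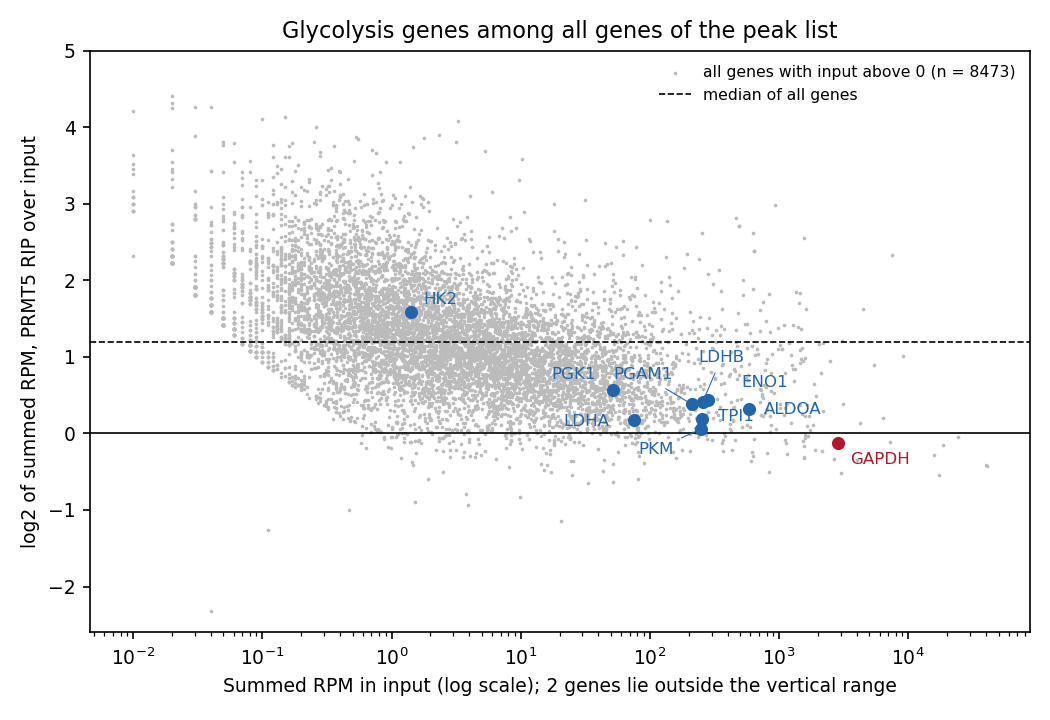
Log2 ratio of summed RPM in PRMT5 RIP over input (vertical) against summed RPM in input (horizontal, log scale) for each gene, with all genes in grey, GAPDH in red and the other 9 glycolysis genes in blue. HK2, at 1.41 RPM in input, is the only one of the 10 above the dashed median of 1.20, and GAPDH is the only one below 0 as deposited; dividing by the column sums moves all points down by 0.63.

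The plot of ratio against input shows these values together: 9 of the genes lie at the right, at 52.19 RPM in input or more, and HK2 stands alone at the left. Levels between genes can be set side by side only per length. Per kilobase of peak, GAPDH had 965 RPM in input and 885 RPM in RIP, ALDOA 128 and 159, TPI1 92.8 and 106, and PGAM1 31.2 and 40.6. The remaining 6 genes had from 1.44 RPM per kilobase in input for HK2 to 16.6 for PKM. These values per length are low where a peak is wide, since 7 peaks of 6 of the genes were wider than 5000 nt.

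The 35 peaks separate further what the sums hide. As deposited, 27 of them were higher in RIP, 7 were lower and 1 was equal, which makes 77.1% higher against the 96.0% of all peaks given above. After division by the column sums 11 of the 35 were higher. The median over all peaks, 1.10 as deposited, exceeds the shift of 0.63, so most peaks of the list stayed above input. Their exact share was not counted. At least 2-fold higher were 7 of the 35, against 56.6% of all peaks, and 5 of these 7 had less than 1 RPM in input. The median log2 ratio was 0.36 over the 35 peaks and 1.10 over all peaks. Among the 35, peaks that began within 300 nt of the outermost RefSeq start of the gene had the higher values. Of these 15, 14 were higher in RIP, against 96.0% of all peaks, and 6 were at least 2-fold higher, against 56.6%. Their median was 0.67, which is below the 1.10 over all peaks. All 6 peaks of the 10 genes with less than 1 RPM in input were among these 15. They include 5 of the 6 at least 2-fold higher, the 3 peaks of HK2 among them. Place and low input are therefore mixed in this contrast. A share for peaks near a start was not taken over the whole list. Of the other 20 peaks, among them ALDOA peak 3 and PKM peak 2 at a start within the gene, 13 were higher and 1 was at least 2-fold higher, with a median of 0.10. All 10 genes had a peak near their start, which for PGAM1, ENO1 and PGK1 was a wide peak that also covered most of the rest of the gene or a large piece of it.

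**Figure D2:**
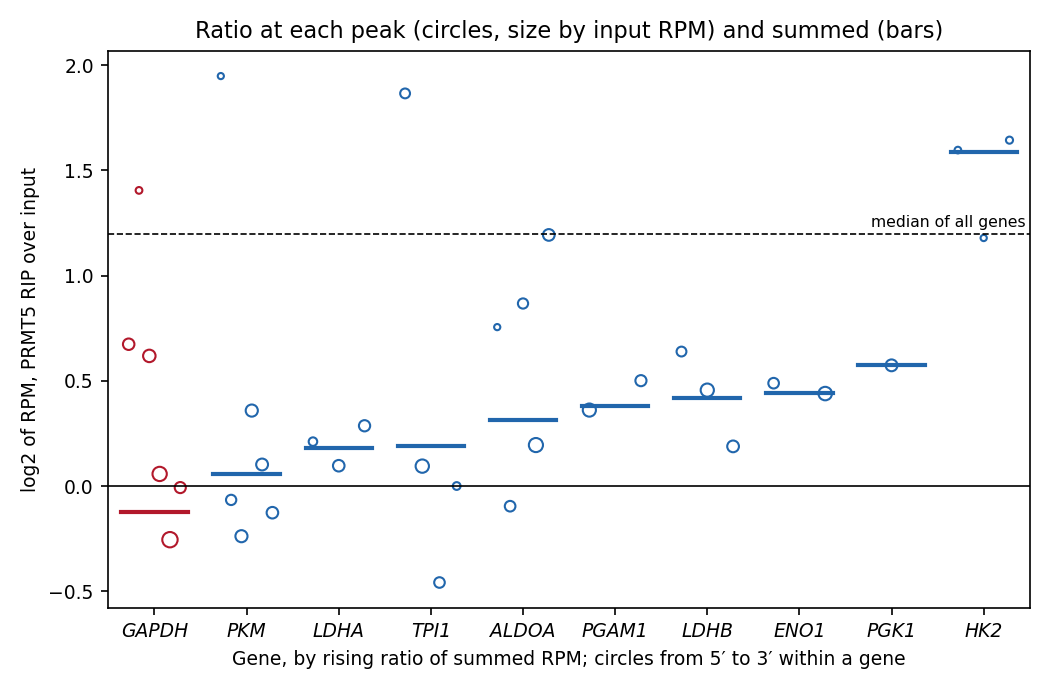
Log2 ratio of RPM in PRMT5 RIP over input at each of the 35 peaks (circles, larger with more RPM in input, ordered from 5′ to 3′ within a gene) and for the RPM summed over the peaks of a gene (bars), with GAPDH in red. The circles of GAPDH, PKM, TPI1 and ALDOA spread on both sides of 0 as deposited, and those of the other 6 genes lie above it; dividing by the column sums moves all of them down by 0.63.

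As the plot of single peaks shows, a gene could hold peaks well above and slightly below input at once. The widest spread was in PKM, from -0.24 to 1.95, the upper value at 0.13 RPM in input, and in TPI1, from -0.46 to 1.87. To place the peaks near the starts, the 30 bases that follow an annotated transcription start are shown for 7 of the genes, 1 start each, where a peak covers part of them, from the RefSeq windows of GRCh38.p14, with the bases inside the peak in capitals and the rest in lower case. They are ordered by the log2 ratio of that peak. For GAPDH, PKM and TPI1 the starts at hand lie within the gene and not at its outermost end. Starts of PGAM1 and ALDOA were also covered by a peak and are not shown. For PGAM1 all 30 bases lay in peak 1, with a log2 ratio of 0.36. For ALDOA 17 bases of a start lay in peak 2, at -0.10, and 26 bases of another in peak 3, at 0.87. Further covered starts of HK2 and TPI1 are not shown either. The 30 bases at the start of PGK1 lay outside its peak.

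TPI1, chr12:6867531-6867560, plus strand, peak 1, log2 ratio 1.87: GCAGACACTGACCTTCAGCGCCTCGGCTCC
HK2, chr2:74834127-74834156, plus strand, peak 1, log2 ratio 1.60: acattgttgcatgaaactccggcgcAGGAG
LDHB, chr12:21657813-21657842, minus strand, peak 1, log2 ratio 0.64: CTTGCAGAGCCGGCGCCGGAGGAGACGCAC
GAPDH, chr12:6535264-6535293, plus strand, peak 3, log2 ratio 0.62: GTCCGGATGCTGCGCCTGCGGTAGAGCGGC
ENO1, chr1:8878657-8878686, minus strand, peak 1, log2 ratio 0.49: AGTATCTGTGGGTACCCGGAGCACGGAGAT
LDHA, chr11:18394563-18394592, plus strand, peak 1, log2 ratio 0.21: GTGCTGCAGCCGCTGCCGCCGATTCCGGAT
PKM, chr15:72231161-72231190, minus strand, peak 2, log2 ratio -0.07: GCACAGCAGCTGCACGCGCCGTGGCTCCGG

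In HK2 the peak began 25 nt after the start, and in the other 6 genes shown all 30 bases lay inside a peak. Over the first 50 transcribed bases, 15 start windows of the 10 genes had a GC content of 46% to 80% with a median of 68%, and 12 of the 15 lay above the median of 60% over 35116 windows of RefSeq starts, whose central 90% ran from 36% to 80%. Whether GC content bears on the ratio was not tested.

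GAPDH, glyceraldehyde-3-phosphate dehydrogenase, carries out the oxidation step that makes NADH. The gene (ENSG00000111640) lies on the plus strand of chromosome 12 at 6534517-6538371, and its 6 peaks fell into a 5′ and a 3′ set. Peak 1, at 6534517-6534591, had 61.0 RPM in RIP and 38.24 RPM in input, a log2 ratio of 0.67. Peak 2, at 6534642-6534758, had 1.34 RPM and 0.50 RPM, a log2 ratio of 1.40 with rounding bounds of 1.39 and 1.42. Peak 3, at 6534784-6535323, had 147.95 RPM and 96.39 RPM, a log2 ratio of 0.62. These 3 peaks together had 210.29 RPM in RIP and 135.13 RPM in input, 1.56-fold more in RIP.

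Further along, GAPDH gave most of its reads and the ratio was lower. Peak 4, at 6535449-6536961, had 637.51 RPM in RIP and 612.66 RPM in input, a log2 ratio of 0.06. Peak 5, at 6537319-6537961, had 1726.49 RPM and 2060.31 RPM, a log2 ratio of -0.26, and held 72.7% of the input RPM of the gene. Peak 6, at 6538316-6538365, had 27.28 RPM and 27.42 RPM, a log2 ratio of -0.01. The last 3 peaks summed to 2391.28 RPM in RIP and 2700.39 RPM in input, 0.886 of input. The value of GAPDH as a gene is thus set by its peaks 4 and 5, which hold 94.3% of its input, while 4 of its 6 peaks were higher in RIP as deposited. By the median over its peaks GAPDH had a log2 ratio of 0.34, above input, and by its outermost 5′ peak it was at 0.67, above 5 of the other 9 genes measured in the same way.

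**Figure D3:**
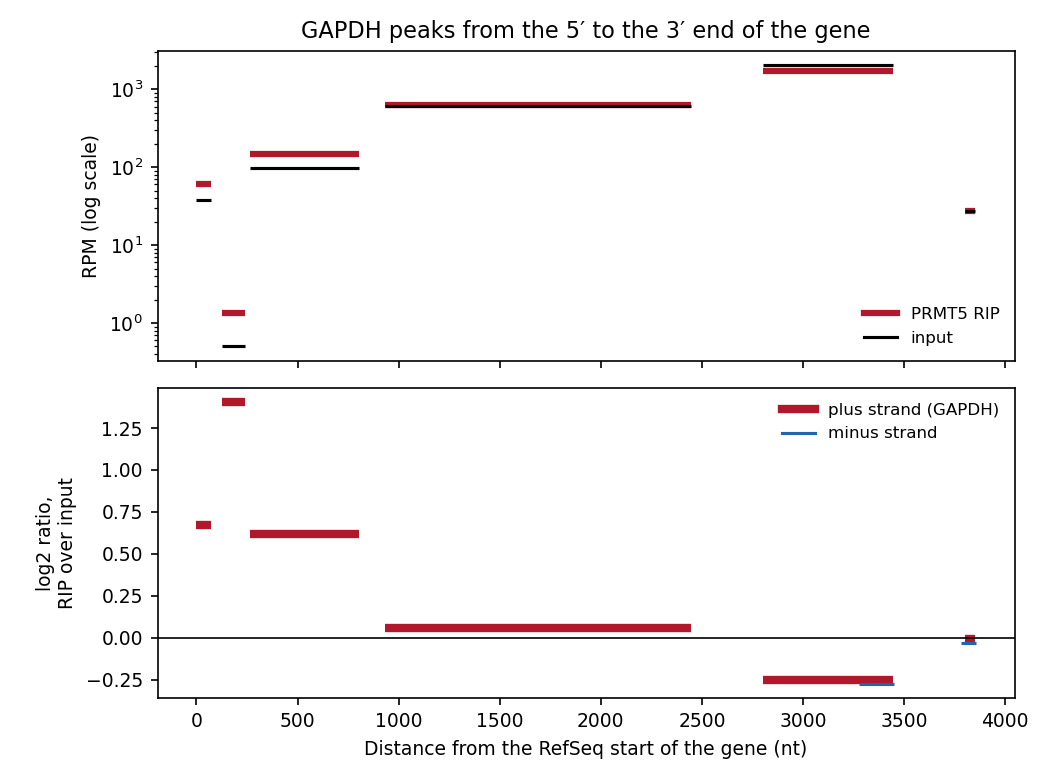
RPM in PRMT5 RIP and input (top, log scale) and log2 ratio of RIP over input (bottom) of the 6 GAPDH peaks by distance from the RefSeq start in nt, each bar spanning its peak, with the overlapping minus-strand peaks in blue. The 3 peaks of the 5′ side lie at 0.62 to 1.40 and the 3 further peaks at -0.26 to 0.06 as deposited; dividing by the column sums moves all of them down by 0.63.

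The plot of GAPDH along the gene also shows peaks on the other strand. A gene listed only as ENSG00000269968 had a minus-strand peak at 6537794-6537968, with 627.5 RPM in RIP and 758.95 RPM in input, that overlapped GAPDH peak 5 by 168 nt. Its log2 ratio of -0.27 differed by 0.02 from that of peak 5. A second minus-strand peak of the same gene, at 6538299-6538370, had 50.94 RPM and 52.16 RPM and differed by 0.03 from GAPDH peak 6. The strand setting of the counting is not given in the sources used here, so reads of the gene and of its antisense partner cannot be told apart. Without the peaks that such an overlap touches, GAPDH had a log2 ratio of 0.18, above input, and lay below 8 of the other 9 genes and 0.20 below their median.

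RefSeq also names 65 pseudogenes after GAPDH, and 105 after the 10 genes in all, and none of the 105 held a peak of the list. How reads that fit several copies were placed is not given in the sources used here. Among the genes of the list whose pair of RIP and input values lay nearest to that of GAPDH on the log2 scale were EEF1A1, RPL29, ND5 and RPS25, a likeness over 2 pooled columns only. EEF1A1, a translation elongation factor, was the nearest with 2798.86 RPM in RIP and 3049.21 RPM in input, and had the log2 ratio of GAPDH, -0.12. A ratio close to that of GAPDH follows from choosing the gene nearest in both values. The cytosolic ribosomal protein gene RPL29 had a log2 ratio of -0.51, whereas the mitochondrial ND5 with 0.30 and the ribosomal protein gene RPS25 with 0.49 were above input as deposited. A summed RPM below input as deposited was also found for 13 of the 72 cytosolic ribosomal protein genes with a peak, whose median log2 ratio was 0.57. The other 59 of the 72 were higher in RIP, against 97.7% of all genes higher. Of the 72, 64 had at least 100 RPM in input, and 52 of these 64 were higher in RIP, against 88.9% of that class.

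HK2, hexokinase 2, phosphorylates glucose in the entry step. It lies on the plus strand of chromosome 2 at 74834127-74893359 (ENSG00000159399), and it differed from the other 9 in its low reads. Peak 1, at 74834152-74834326, had 1.32 RPM in RIP and 0.43 RPM in input, a log2 ratio of 1.60. Peak 2, at 74834352-74834401, had 0.42 RPM and 0.18 RPM, a log2 ratio of 1.18. Peak 3, at 74834427-74835177, had 2.52 RPM and 0.80 RPM, a log2 ratio of 1.64. All 3 peaks lay at the very start of a gene of 59233 nt, and the gene as a whole had 4.26 RPM in RIP and 1.41 RPM in input, 3.02-fold. It was the only one of the 10 that stayed above input after division by the column sums, at 0.96 on the log2 scale. The median gene of the list then stood at 0.57. No HK2 peak reached 1 RPM in input, so HK2 drops out where such peaks are left out, and the median of the others is then 0.35 over 8 genes.

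ALDOA, aldolase A, splits fructose 1,6-bisphosphate into both triose phosphates. The gene (ENSG00000149925) lies on the plus strand of chromosome 16 at 30064279-30070420 and had 726.36 RPM in RIP and 584.41 RPM in input over 5 peaks, a log2 ratio of 0.31. Its first peak, at 30064164-30064188, began at -115 nt from the RefSeq start and had 0.26 RPM and 0.15 RPM, a log2 ratio of 0.75. Peak 2, at 30064414-30064513, had 17.16 RPM and 18.34 RPM, a log2 ratio of -0.10, and overlapped by 92 nt a minus-strand peak of ENSG00000274904 whose ratio differed from it by 0.01. Peak 3, at 30065764-30066895, had 23.61 RPM and 12.94 RPM, a log2 ratio of 0.87, and began beside a RefSeq start within the gene. Most reads of ALDOA lay in peak 4, at 30067021-30070029, with 580.21 RPM and 507.00 RPM, a log2 ratio of 0.19. Peak 5, at 30070105-30070404, was the 3′ end of the gene and had 105.12 RPM and 45.98 RPM, 2.29-fold, which made it the only peak at least 2-fold higher among the 20 that began further than 300 nt from the outermost start of their gene.

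TPI1, triose-phosphate isomerase, interconverts the triose phosphates so that both can go on. It lies on the plus strand of chromosome 12 at 6867420-6870948 (ENSG00000111669), with 286.29 RPM in RIP and 251.17 RPM in input, a log2 ratio of 0.19. Peak 1, at 6867469-6868111, had 34.27 RPM and 9.40 RPM, 3.65-fold. No other peak of the 10 genes with 1 RPM or more in input had a larger ratio, and the start shown above lies inside it. Peak 2, at 6868487-6870475, held most of the reads with 237.55 RPM and 222.49 RPM, a log2 ratio of 0.09. Peak 3, at 6870576-6870625, had 12.85 RPM and 17.66 RPM, a log2 ratio of -0.46 and the lowest of the 35, and peak 4, at 6870801-6870825, had 1.62 RPM in both. In TPI1, as in GAPDH, the ratio was thus lower on the 3′ side than on the 5′ side.

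PGK1, phosphoglycerate kinase 1, makes the first ATP of the payoff phase. The gene (ENSG00000102144) lies on the plus strand of chromosome X at 78104248-78129295, and its single peak, at 78104293-78125364, was 21072 nt wide. It had 77.66 RPM in RIP and 52.19 RPM in input, 1.49-fold, the second ratio of the 10 after HK2. PGAM1, phosphoglycerate mutase 1, moves the phosphate group in the next step and lies on the plus strand of chromosome 10 at 97426191-97433444 (ENSG00000171314). Its wide peak 1, at 97426191-97432667, had 237.02 RPM and 184.57 RPM, a log2 ratio of 0.36. Its peak 2, at 97432718-97433042, had 38.95 RPM and 27.53 RPM, a log2 ratio of 0.50, and the gene as a whole stood at 0.38. These wide peaks were given as 1 block, and which parts of the transcripts they cover was not analysed here.

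ENO1, enolase 1, makes phosphoenolpyruvate and lies on the minus strand of chromosome 1 at 8861000-8878686 (ENSG00000074800). Its 5′ peak, at 8870866-8878689, had 25.30 RPM in RIP and 18.03 RPM in input, a log2 ratio of 0.49. Its 3′ peak, at 8861225-8870840, had 357.77 RPM and 263.86 RPM, a log2 ratio of 0.44. The peaks of ENO1 were close to each other in ratio, and the gene stood at 0.44.

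PKM, pyruvate kinase, makes the last ATP of the chain and yields pyruvate. It lies on the minus strand of chromosome 15 at 72199029-72231591 (ENSG00000067225) and had 256.40 RPM in RIP and 246.63 RPM in input, a log2 ratio of 0.06, the closest to GAPDH. Peak 1, at 72231306-72231380, had only 0.53 RPM and 0.13 RPM, a log2 ratio of 1.95 with rounding bounds of 1.88 and 2.01. The other 5 peaks lay near input on the deposited scale. Peak 2, at 72231106-72231205, was at -0.07, peak 3, at 72217446-72221170, at -0.24, peak 4, at 72203170-72210465, at 0.36, peak 5, at 72199629-72203044, at 0.10, and peak 6, at 72199229-72199478, at -0.13. Of these, peak 4 had the most reads, with 89.91 RPM in RIP and 70.13 RPM in input, and peak 5 had 57.75 RPM and 53.80 RPM. Peaks 2, 3 and 6 were lower in RIP, with 13.23 RPM against 13.85 RPM, 57.10 RPM against 67.36 RPM and 37.88 RPM against 41.36 RPM.

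LDHA and LDHB encode the subunits of lactate dehydrogenase, which interconverts pyruvate and lactate. LDHA (ENSG00000134333), on the plus strand of chromosome 11 at 18394563-18408425, had 85.71 RPM in RIP and 75.55 RPM in input, a log2 ratio of 0.18. Its 3 peaks, at 18394562-18394636, 18396816-18400890 and 18400991-18407130, had 3.74 RPM in RIP against 3.23 RPM in input, 44.24 RPM against 41.38 RPM and 37.73 RPM against 30.94 RPM, with log2 ratios of 0.21, 0.10 and 0.29. LDHB (ENSG00000111716), on the minus strand of chromosome 12 at 21635342-21657842, had 343.17 RPM and 257.12 RPM, a log2 ratio of 0.42. Of the pair LDHB had the higher ratio, by gene and by the peak at the start. Its peak 1, at 21657730-21657842, had 14.72 RPM and 9.45 RPM, a log2 ratio of 0.64, and its peak 2, at 21630773-21657479, was 26707 nt wide and had 273.54 RPM and 199.48 RPM, a log2 ratio of 0.46. Peak 3, at 21635417-21635709, lay inside peak 2 with 54.91 RPM and 48.19 RPM, a log2 ratio of 0.19, so the sum for LDHB may count some reads more than once. Peak 2 also runs past the RefSeq end of LDHB and lists 2 identifiers, as 9 of the 35 peaks list several, all 5 of ALDOA among them, so its value and the 3′ value taken from it can hold reads of another gene.

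In 5 of the 9 glycolysis genes with several peaks the ratio was higher in the outermost 5′ peak than in the outermost 3′ peak, against 69.9% of the 4613 genes of the list whose end peaks differed. PKM went from 1.95 at the 5′ end to -0.13 at the 3′ end, TPI1 from 1.87 to 0.0, and GAPDH from 0.67 to -0.01. The 5′ value of PKM comes from a peak with 0.13 RPM in input, and its next peak, with 13.85 RPM, was at -0.07. LDHB, with its wide peak taken as the 3′ end, went from 0.64 to 0.46, and ENO1 from 0.49 to 0.44. The order was the opposite in ALDOA, from 0.75 to 1.19, PGAM1, from 0.36 to 0.50, LDHA, from 0.21 to 0.29, and HK2, from 1.60 to 1.64. The 5′ peak of ALDOA had only 0.15 RPM in input. In HK2 even the outermost 3′ peak was centred at 1.14% of the gene length, so its values do not compare the ends of the gene. All differences between outermost peaks hold on either scaling, since both move alike.

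**Figure D4:**
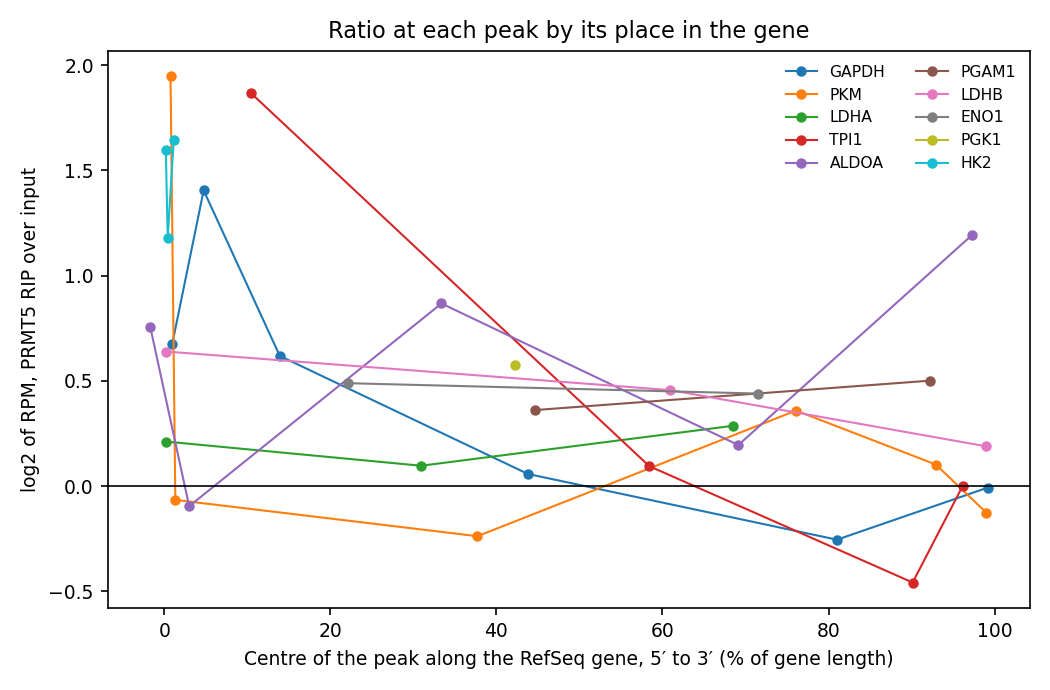
Log2 ratio of RPM in PRMT5 RIP over input at each peak against the centre of the peak along the RefSeq gene, in percent of gene length from the 5′ to the 3′ end, with a line for each of the 10 genes. As deposited, PKM, TPI1 and GAPDH go from 1.95, 1.87 and 0.67 at the 5′ side to -0.13, 0.0 and -0.01 at the 3′ side. ALDOA ends at 1.19. The 5′ value of PKM comes from a peak with 0.13 RPM in input, and all HK2 peaks lie at the start of the gene. Dividing by the column sums moves all points down by 0.63.

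Beside the 10 genes, a list of 33 other symbols of the pathway was looked up, 21 for other enzymes and isoenzymes and 12 for regulators and transporters. Of these, 14 had a named peak, 8 of the enzymes and 6 of the regulators and transporters. As deposited 13 of the 14 were higher in RIP, against 97.7% of all genes, and 11 after division by the column sums. After this division the median gene of the list stood at 0.57, and the share of all genes above input was not counted. At least 2-fold higher were 9 of the 14, against 62.7% of all genes. Their median log2 ratio was 1.13, at a median input of 2.19 RPM, against 1.20 and 2.28 RPM for all genes of the list. Lowest was GPI, the isomerase that makes fructose 6-phosphate, with 126.76 RPM in RIP and 150.42 RPM in input, a log2 ratio of -0.25 and below GAPDH. Next came TIGAR, a phosphatase that lowers glycolytic flux, with a log2 ratio of 0.28, and PGAM4 with 0.39, which is nearly identical to PGAM1 and so uncertain.

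At the upper end among genes with at least 1 RPM in input stood ALDOC, an aldolase isoenzyme, with 4.30 RPM in RIP and 1.71 RPM in input, a log2 ratio of 1.33. PFKP, the platelet type of phosphofructokinase, had 24.38 RPM and 9.98 RPM, a log2 ratio of 1.29. SLC2A1, the glucose transporter GLUT1, had 6.56 RPM and 2.69 RPM, a log2 ratio of 1.28. These 3 genes stayed above input after division by the column sums, at 0.70, 0.66 and 0.66, against 0.57 for the median gene. In the neighbouring pathways, 6 of 7 pentose phosphate genes had a peak with a median log2 ratio of 0.81, and 21 of 25 genes of pyruvate dehydrogenase and the citric acid cycle with a median of 0.73, and all of these 27 genes were higher in RIP as deposited, against 97.7% of all genes. The 10 glycolysis genes had a median of 0.35 at a higher input. With at least 100 RPM in input the median was 0.31 for 7 glycolysis genes and 0.36 for 2 pentose phosphate genes, and MDH2, the 1 such gene of the citric acid cycle list, was at 0.21.

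PDCD1, the target gene of the study, had 0.74 RPM in RIP and 0.28 RPM in input summed over its peaks, 2.64-fold, with a log2 ratio of 1.37 and rounding bounds of 1.24 and 1.51. After division by the column sums it stood at 0.74, the median gene at 0.57 and GAPDH at -0.75. Both genes thus had peaks in the list, PDCD1 with few reads and GAPDH with many. The ratio of PDCD1 lay above that of the median gene, but its input lay below the median gene input of 2.28 RPM. Across the list the ratio was lower where input was higher, with a Spearman correlation of -0.55. Whether the ratio of PDCD1 is high among genes of like input was not tested. GAPDH had a ratio near the bottom of the list.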

How the data were processed

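RIP-seq of PRMT5 was read from 1 peak list for 2 PRMT5 RIP and 2 input libraries. According to the submitters' processing notes, fastp, HISAT2 and the build hg38 were used; the library kit was NEBNext Ultra Directional. The peak caller, the counting and its strand setting, and how the replicates were combined are not given in the sources used here. At each peak the authors deposited RPM for RIP and for input, with steps of 0.01. The list also holds a log2 fold change, a p-value, an FDR and a score of the comparison of RIP with input, none of which was used.

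RPM was summed over the peaks of an unversioned first-listed identifier, and the log2 ratio was taken with a pseudocount of 0.01 RPM. Positions count from 1. Symbols came from the supplement for 849 identifiers and by position and strand from RefSeq genes for 6453, where a gene was touched by at least 50% of the peaks of an identifier, so 7302 of 8478 genes were named. Start windows came from RefSeq (GRCh38.p14). A genome, exons and UTRs were not used here.

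The genes and lists were chosen with earlier results of these data known. Named were the 10 genes, the 3 highest and 3 lowest of the other pathway genes with at least 1 RPM in input, PDCD1, and the 5 genes nearest to GAPDH by Euclidean distance on log2 RPM, of which 1 is not reported here; CD3D, CD79A and the genes on the opposite strand were chosen with their values known, as was MDH2. Tried as alternatives were another pseudocount, other ways to take a value per gene, filters on input, overlap and fold, and division by the column sums. No test was made, since values per library were not used here and the p-values of the list were left aside. The script was tested on simulated data for 5478 genes, with a largest log2 error of 0.0143. Scripts ran in Python 3.11.15 (matplotlib 3.10.9, scipy 1.17.1, numpy 2.4.6, pandas 2.3.3).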

Additional observations from a re-analysis of the deposited data

How the results depend on the processing

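As reported, GAPDH lay 0.50 below the median of the other 9 genes on the log2 scale. Pseudocounts of 0.1 and 1 RPM changed this by less than 0.005, and the use of every listed identifier left the same 35 peaks. With the peak highest in input for each gene, GAPDH was at -0.26, the others at 0.36 and the difference at -0.62. With the median over peaks the values were 0.34, 0.46 and -0.12, so that GAPDH turned to above input, with 6 of the 9 others above it. Peaks with at least 1 RPM in input gave 0.35 for the others and a difference of -0.47. Without peaks overlapped on the opposite strand GAPDH turned to 0.18, and the difference was -0.20. Division by the column sums gave -0.75 for GAPDH and turned the others to -0.25, and it cannot change their difference. The peak nearest to the 3′ end gave -0.0074, 0.46 and -0.46, and the peak nearest to the 5′ end gave 0.67, 0.64 and a difference turned to 0.0347, with 4 of the 9 others above GAPDH.

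Of the 35 peaks, 27 were higher in RIP as deposited, 11 after division by the column sums and 7 at 2-fold. Of the 10 genes, these counts were 9, 1 and 1. The shares over all peaks and genes stand with these counts above, except after division by the column sums, where they were not counted. Of the other pathway genes, 13 were higher, and 7 of 8 where peaks under 1 RPM in input were left out, since fewer genes remained. The other alternatives kept each count within 1.5 times.

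The labels number the replicates 1 and 2. No paired analysis was possible because each RPM column pools the libraries of a kind, and for the same reason the planned removal of each replicate was not run. Low input limits HK2 and the first peak of PKM most.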
